A study of Homo sapiens with 24 samples.

Results

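GOLM1 was knocked down with small interfering RNA (siRNA) in DU145 and PC3, established cell lines of human prostate cancer, and the RNA was compared with that of cells given a control siRNA. These are 2 of the 24 arrays of the series, chosen by their labels, with 1 array for each line. On each array the RNA of si-GOLM1 cells carried the dye Cy5 and the RNA of control siRNA cells the dye Cy3, and the dyes were not swapped. Both RNAs came from cells of the same line, transfected with Lipofectamine RNAiMAX in RPMI 1640 or DMEM medium. The siRNA sequence, its dose and the time of harvest are not given in the sources used here. The arrays lie on 1 slide with 6 others of the same design, which held miR-143 in DU145 and PC3, miR-27b in the renal cancer lines 786O and A498, and CXCL10 in 786O at 12 and 24 h. These 6 arrays show how each probe behaved with the same dyes but without si-GOLM1, and their values stand beside the results.

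GOLM1 encodes a membrane protein of the Golgi apparatus, also known as GP73 or GOLPH2. It spans the membrane once, with its bulk in the Golgi lumen, and can be cut by the protease furin and released from the cell. It is known as a transcript and protein that is abundant in prostate cancer and in liver cancer. CASC4, now named GOLM2, is a close relative of it in the genome.

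Values are log2 ratios of si-GOLM1 over control, so that -1.0 means a level at 50% of the control. With 1 array per line the differences within a line have no replicate check and carry no p-value, and precision is limited by having so few arrays. The error after ± is the scanner software's technical estimate for 1 array. It had a median of 0.206 in both lines over the 14425 genes tested, each represented by its brightest probe, that with the highest mean log2 signal over the 4 channels of both arrays. A gene was tested where its probe was well above background in at least 1 dye of each array. The SD of the log2 ratios over these genes was 0.271 in DU145 and 0.349 in PC3, and the medians were 0.01 and 0.02.

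The labelled cell lines were checked against known genes. CTNNA1, known as deleted in PC3, was well above background in the control RNA of DU145 but not in that of PC3, with signals of 5437 and 4.87 units. All 5 markers of glandular epithelium (EPCAM, KRT8, KRT18, KRT19 and CDH1) were well above background in both lines. Of 6 prostate luminal markers, 4 were above background in DU145 and 5 in PC3, with KLK2 and KLK3 at signals of 27.3 to 31.6. Of 7 fibroblast markers only COL1A1 was above background, at a signal of 20.7 in DU145 and 129 in PC3. Among the markers of white blood cells, 4 of 5 were above background in DU145 and 3 of 5 in PC3, with CD68 the brightest at 492 and 320, and of the 5 endothelial markers 2 were in each line, at signals of 34.9 to 61.2.

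GOLM1 itself was lower in both lines at both of its probes. At the probe that represents it, the brighter over the 4 channels together, DU145 gave a signal of 2047 with control siRNA and 329 with si-GOLM1, a log2 ratio of -2.64 ± 0.318. In PC3 the signals were 648 and 86.1, a log2 ratio of -2.91 ± 0.340. The second probe, which was the brighter in control cells, gave -3.02 ± 0.347 in DU145 and -4.15 ± 0.441 in PC3, from signals of 2068 and 1085 down to 256 and 61.2. Control cells thus differed in the starting signal at both probes, DU145 being the brighter. The loss was 6.22-fold in DU145 and 7.52-fold in PC3 at the first probe, a gap smaller than the software error, but 8.09-fold and 17.7-fold at the second, a gap larger than it. With background correction by normexp the first probe read -2.42 in DU145 and -2.17 in PC3, and with no background correction -2.52 and -2.42. Which line had the deeper loss at that probe thus depended on the processing. The probes carry the accession NM_016548. The array's annotation puts the first on chromosome 9 from 88642342 to 88642401 of hg19 (GRCh37) and the other from 88641562 to 88641621, both on the reverse strand.

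GOLM1 was not level on all other arrays. The probe that represents it read -0.77 with miR-143 in DU145, -1.18 with miR-143 in PC3, -0.78 and -0.73 with miR-27b in 786O and A498, and 0.04 and 0.01 with CXCL10. The second probe read -1.05 and -1.55 with miR-143 in the same lines. Over all 22 arrays of other treatments in the series the first probe ran from -2.04, with miR-27b in PC3, to 0.89, with miR-375 in FaDu, with a median of -0.12, and the second from -1.995 to 0.61. The si-GOLM1 values lie below these ranges at both probes. CASC4 was not lowered. Its brightest probe read 0.38 in DU145 and 0.61 in PC3, above the 6 other arrays of the design (-0.03 to 0.28), while a dim second probe gave -0.10 and 0.03.

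A larger set of genes was lower or higher in both lines. Past a log2 ratio of 0.5 in each line, 150 genes were lower, which is 1.04% of the genes tested, and 145 were higher, which is 1.01%. For comparison, 386 genes (2.68%) were lower and 395 (2.74%) higher past 0.5 in DU145, and 686 (4.76%) were lower and 879 (6.09%) higher in PC3. Past 1.0 in both lines there were 36 genes lower and 9 higher. All 4 channels of both arrays were well above background in 12 of the 36 and in none of the 9. The shared losses were thus larger than the shared gains among bright probes. The log2 ratios of the lines correlated across genes with a Pearson r of 0.48, a description over 14425 genes that are not independent. The pairs of a si-GOLM1 array with another treatment on the slide gave 0.11 to 0.30 and pairs among the 6 other arrays 0.18 to 0.38. The latter include pairs that share a treatment. These gave 0.37 for miR-143 in DU145 and PC3, 0.38 for miR-27b in 786O and A498, and 0.22 for CXCL10 at 12 and 24 h.

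**Figure D1:**
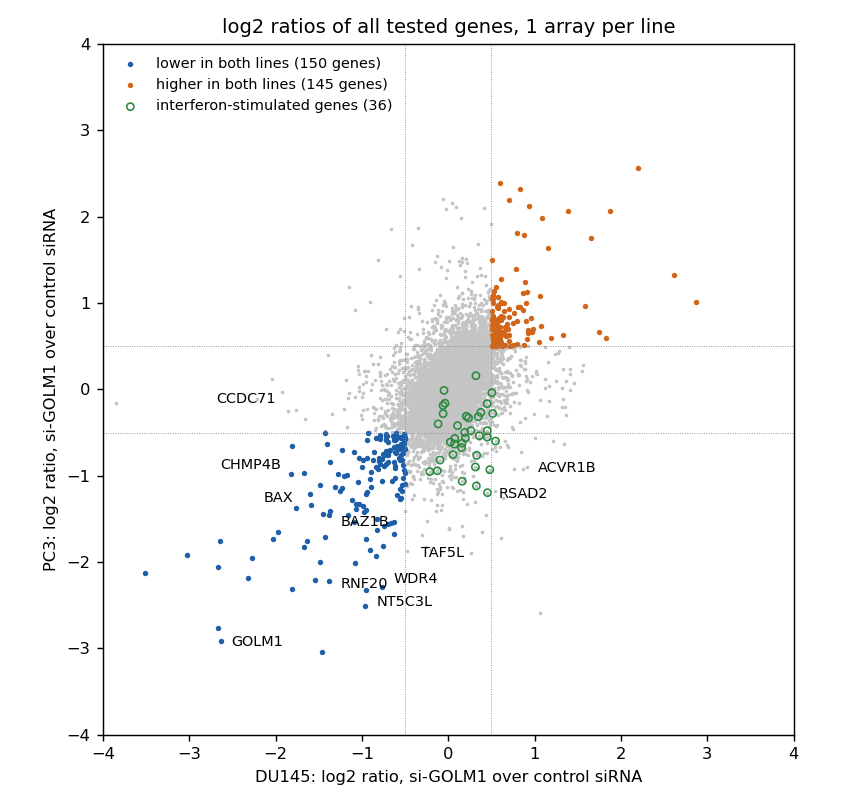
Each point is 1 of 14425 genes, with its log2 ratio of si-GOLM1 over control siRNA in DU145 on the x axis and in PC3 on the y axis, 1 array per line and no error bars. Blue and orange points are the 150 genes lower and 145 higher past 0.5 (dotted lines) in both, and green circles are 36 interferon-stimulated genes, most of which lie below 0 in PC3 and above 0 in DU145. GOLM1 lies at the lower left.

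Part of this shared set moved the same way without si-GOLM1. Outside the range of the 6 other arrays in both lines were 76 of the 150 lower genes (0.527% of genes tested) and 87 of the 145 higher genes (0.603%), a limit chosen after seeing the data. Named genes past 1.0 in both lines and within that range in both were ALOX15B (-1.09 and -1.54, others down to -1.57) and LCN8 (-1.03 and -1.33, others down to -1.59). PHF21A (-1.07 and -1.33, others down to -1.11) and HOXB9 (-1.07 and -1.38, others down to -1.13) were within it in DU145 but below it in PC3. Among the higher genes GIPR, an incretin receptor, read 0.83 and 0.96 but between 0.79 and 1.06 on the 6 others, and C17orf99 (0.70 and 0.84, others up to 1.92) and TNS1 (0.76 and 0.89, others up to 0.81) were not outside it in both lines either. The largest losses at unnamed or non-coding probes also had low values on the other arrays: LOC100507420 read -2.24 in DU145 and -1.59 in PC3, and -0.92 to -1.60 without si-GOLM1. XLOC_003422 (-1.43 and -1.75), XLOC_005900 (-1.32 and -1.21), THC2608358 (-1.15 and -1.52) and ENST00000397190 (-1.79 and -1.23) were also below 0 on all 6 others. Of the largest gains at such probes, XLOC_014111 (0.91 and 1.07, others up to 1.30) was within the range of the others and XLOC_005894 (0.82 and 0.88, others up to 0.89) too, while LOC283075 (0.79 and 0.98, others up to 0.63), XLOC_l2_005921 (0.85 and 0.74, others up to 0.45) and ENST00000412448 (0.70 and 0.70, others up to 0.54) were above it.

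Among the largest shared losses outside that range were those of RNF20, BAZ1B, BAX and PFDN6. RNF20, a ubiquitin ligase for histone H2B, went from a signal of 239 to 92.0 in DU145 and from 140 to 30.0 in PC3, log2 ratios of -1.38 ± 0.245 and -2.22 ± 0.305, against -0.35 to 0.07 on the others. With background correction by normexp RNF20 read -0.97 and -1.09. BAZ1B, a subunit of a chromatin remodeller, gave signals of 1960 and 757 in DU145 and 1921 and 722 in PC3, log2 ratios of -1.37 and -1.41, against -0.05 to 0.22. Its second probe read -1.63 and -2.14. The loss of BAZ1B was thus seen at both probes and in both lines.

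BAX, a promoter of apoptosis at the mitochondrion, went from 2463 to 816 in DU145 and from 2937 to 1157 in PC3, log2 ratios of -1.59 ± 0.251 and -1.34 ± 0.238, against -0.94 to 0.29. A dim probe for another BAX transcript, with control signals of 98.6 and 98.9, gave only -0.46 and -0.15. PFDN6, a subunit of the chaperone prefoldin, read -1.32 and -1.13 at its bright probe and -0.13 and 0.09 at a dimmer one for a different transcript. For these genes the loss thus rests on 1 of 2 probes.

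C5orf15 read -1.16 and -1.46, and its second probe -1.13 and -1.40. EML2, a microtubule-associated protein, read -1.12 and -1.28, and MAGEE1 -1.25 and -1.17, although MAGEE1 was also at -0.50 to -0.81 on the 6 others and read -0.68 and -0.72 with normexp. SLC39A7, a zinc transporter of the secretory pathway, read -1.17 and -0.99, and CHMP4B, a subunit of the ESCRT machinery that pinches off membranes, -1.68 and -0.97. The loss of CHMP4B was therefore deeper in DU145. In PC3 its value lay only just outside the other arrays, whose lowest value was -0.82.

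Several shared losses were deeper in PC3. NT5C3L, a cytosolic nucleotidase now named NT5C3B, read -0.95 ± 0.222 in DU145 and -2.32 ± 0.297 in PC3, USP11, a deubiquitinating enzyme, -0.95 ± 0.222 and -1.74 ± 0.259, and WDR4, a partner of a transfer RNA methyltransferase, -0.76 ± 0.220 and -2.29 ± 0.296. PREX1, an exchange factor for the GTPase Rac, read -0.83 and -1.62, and PARVB, which links integrins to actin, -0.74 and -1.58. On the 6 others the lowest value of any of these was -0.16, that of WDR4. Over the 76 genes the median was -0.72 in DU145 and -0.87 in PC3, and 51 had the larger value in PC3. Of the 14425 genes, 9190 had the larger absolute value in PC3.

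Other members of the secretory pathway stood in this set, named here after their values were seen. P4HB, a protein disulfide isomerase, read -0.63 in DU145 and -1.54 in PC3, and TMED9, a cargo receptor between endoplasmic reticulum and Golgi, -1.43 and -0.51. AP1S1, a subunit of the clathrin adaptor of the trans-Golgi, read -0.80 and -0.79, and SDF4, a calcium-binding protein of the Golgi lumen, -0.80 and -0.86. KRT7, a keratin of simple epithelium, read -0.62 and -0.88, against 0.02 to 0.18 on the others. The set also held SAMD1 (-0.94 and -1.19), PDLIM2 (-0.90 and -1.13), MLLT1 (-0.77 and -1.06), GIPC1 (-0.82 and -0.92), ENSA (-0.84 and -0.90), THOC6 (-0.87 and -0.72) and RIC8A (-0.76 and -0.75). A second probe of ENSA read only -0.15 in DU145 and -0.49 in PC3. With normexp THOC6 read -0.45 and -0.38.

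The shared gains were smaller and came from dimmer probes. SNRK, a kinase of the AMPK family, went from a signal of 42.0 to 76.3 in DU145 and from 55.1 to 105 in PC3, log2 ratios of 0.86 ± 0.268 and 0.92 ± 0.243, against -0.43 to 0.61 on the others. With normexp SNRK read 0.38 and 0.44, and of the 25 named genes higher in both lines outside the other arrays 9 stayed past 0.5 in both, against 21 of the 25 lower ones. SPATA2 read 0.96 and 0.83, ACCN1 (now ASIC2) 0.80 and 0.79, TCF12, a helix-loop-helix transcription factor, 0.75 and 0.77, U2SURP, a splicing factor, 0.67 and 0.70, and RAP2A, a small GTPase, 0.67 and 0.72. TCF15 (0.69 and 0.70), TNRC6C (0.98 and 0.70) and ZBTB46 (0.67 and 0.76) also read above 0 on all 6 others. The median control signal of the 87 higher genes was 56.6 in DU145 and 86.3 in PC3, and that of the 76 lower genes 328 and 411, against 416 and 523 for all genes tested.

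Brighter shared gains were those of the cell cycle genes RRM2 and CCNE2. RRM2, a subunit of ribonucleotide reductase, went from 1295 to 1927 in DU145 and from 2193 to 3842 in PC3, log2 ratios of 0.57 and 0.81, although a probe that the array names C2orf48 and RefSeq assigns to the same gene read -0.34 and -0.68. CCNE2, cyclin E2, went from 743 to 1103 and from 919 to 1770, log2 ratios of 0.57 and 0.95, with 0.52 and 0.48 at its dimmer probe. Neither gene exceeded 0.34 on the 6 other arrays. KITLG, the ligand of the receptor KIT, read 0.91 and 0.59, against 0.34 to 0.50.

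**Figure D2:**
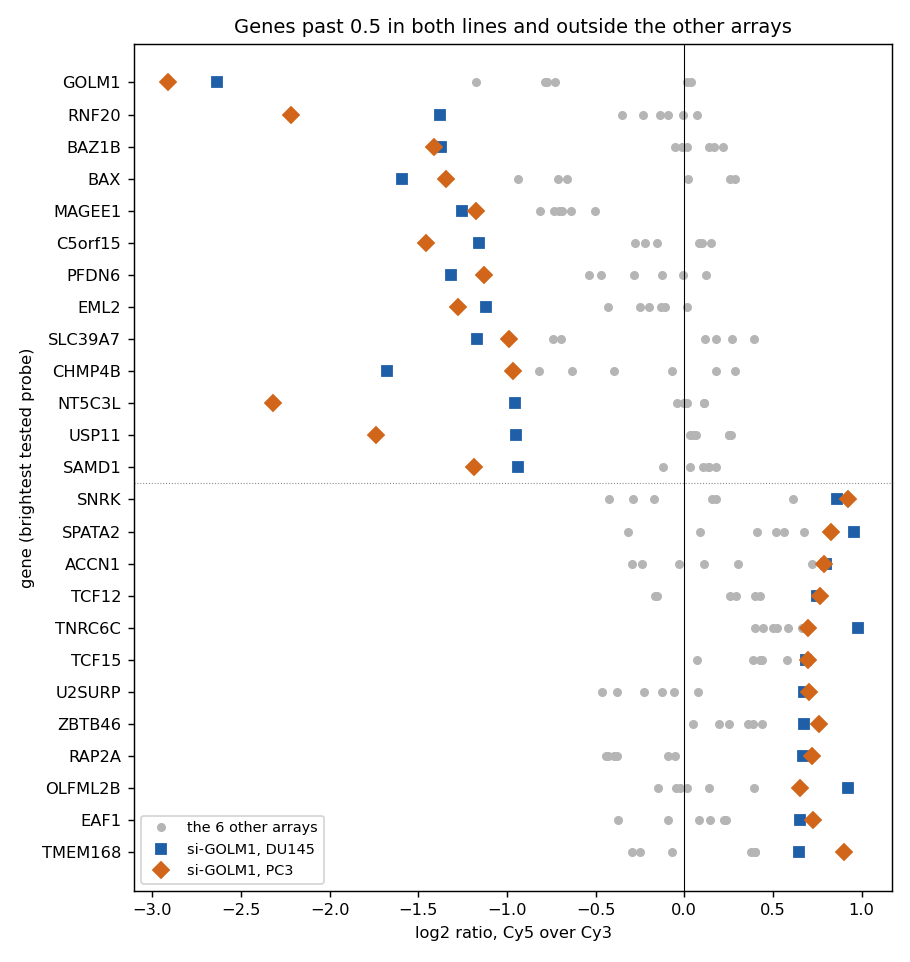
For GOLM1 and the 12 genes with the largest shared loss and the 12 with the largest shared gain outside the other arrays, the x axis gives the log2 ratio of Cy5 over Cy3 at the brightest probe. Blue squares are si-GOLM1 in DU145, orange diamonds si-GOLM1 in PC3, and grey dots the 6 other arrays of the slide; there is 1 value per array. Genes are ranked by the smaller absolute log2 ratio of the lines, among protein-coding genes well above background in all 4 channels. Among the genes shown the losses reach -2.32 apart from GOLM1, and no gain exceeds 0.98. TMTC2, ranked lower and not shown, read 1.19 in DU145 and 0.60 in PC3.

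Where a gene had several probes, they did not always agree. Of 4031 genes with at least 2 tested probes, the brightest probe called 20 lower in both lines, and in 8 genes every probe was past 0.5 in both. These were GOLM1, BAZ1B, C5orf15, COQ5, MLLT1, P4HB, APP and PRKDC. COQ5, an enzyme of coenzyme Q synthesis, read -0.65 to -1.79 over 3 probes in DU145 and -1.06 to -1.77 in PC3, but the probe with the largest values ran from -2.32 to -1.34 on the 6 other arrays. APP, the amyloid precursor protein, read -0.76 and -0.90 in DU145 and -1.81 and -1.72 in PC3, but its brightest probe reached -1.01 on another array of the slide. PRKDC, the catalytic subunit of DNA-dependent protein kinase, read -0.61 and -0.59 in DU145 and -0.91 and -1.11 in PC3, with -0.63 on another array at the first probe. Of 20 genes called higher by the brightest probe, every probe was past 0.5 in 1, ZBTB46, whose second probe reached 1.68 on another array.

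A limma fit over the 8 arrays of the design, with 1 coefficient per treatment, tested whether the mean of both si-GOLM1 arrays differed from 0. The residual spread of this fit is that between lines or times of a treatment. After Benjamini-Hochberg adjustment over 25009 probes, 58 probes were lower (0.232%) and 24 higher (0.096%) at an adjusted p under 0.05. GOLM1 fell at both probes, with a mean of -2.77 (limma adjusted p = 0.00239) and -3.58 (limma adjusted p = 0.0138). BAZ1B also passed at both probes (limma adjusted p = 0.0120 and 0.0134), as did MAGEE1, EML2, PFDN6, RNF20, C5orf15, MLLT1, SAMD1, SDF4, GIPC1 and KRT7 at 1 probe or more. Of the 82 probes, 52 had the same sign on all 6 other arrays, among them LINC00189 (-2.67 and -2.77) with the smallest adjusted p. When the other treatments were subtracted, limma called 0 probes after adjustment, with 3533 at an unadjusted p under 0.05, and the smallest adjusted p was 0.0632, that of GOLM1. From the 2 si-GOLM1 arrays alone limma called 0, with 3833 unadjusted.

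In DU145 alone, 24 genes were lower past 1.0 with PC3 within 0.5 of 0 (0.166% of genes tested) and 29 were higher (0.201%). All 4 channels were well above background in 7 of the 24 and in none of the 29. The 6 protein-coding ones were CCDC71 (-1.76 in DU145 and -0.24 in PC3), CLSTN3 (-1.43 and -0.48), NDST1 (-1.21 and -0.22), DLST (-1.09 and -0.09), QTRT1 (-1.03 and -0.02) and SLC6A8 (-1.005 and -0.09). NDST1 acts in the Golgi on heparan sulfate, DLST in the citrate cycle and SLC6A8 in creatine uptake. At 2 further probes SLC6A8 gave only -0.28 and -0.23 in DU145. With normexp CCDC71 read -0.97, SLC6A8 -0.75 and QTRT1 -0.45 in DU145, while CLSTN3 (-1.30), NDST1 (-1.19) and DLST (-1.04) stayed past 1.0. QTRT1 was dim in DU145, with a control signal of 55.0. Each of the 6 was below the lowest of the 6 other arrays in DU145.

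In PC3 alone, 62 genes were lower (0.43%) and 61 higher (0.423%), and all 4 channels were well above background in 51 of the lower and 12 of the higher genes. TAF5L, a subunit of a histone acetyltransferase complex, read -1.87 in PC3 and -0.48 in DU145, but its dim second probe -0.05 and -0.01. NPM3, a nucleolar histone chaperone, went from a signal of 8235 to 3277 in PC3, a log2 ratio of -1.33, and read 0.21 in DU145. CCL3, a chemokine, read -1.40 and -0.08, although it was at -1.61 on another array of the slide. ZBED1 (-1.41 in PC3 and -0.50 in DU145), HTR5A (-1.68 and -0.31), DEPDC4 (-1.34 and -0.13), TUSC5, now TRARG1 (-1.29 and -0.20) and TAF15 (-1.30 and 0.31) complete the largest losses, and TAF15 ran from -1.78 to 1.35 without si-GOLM1. A dimmer second probe of ZBED1 read -0.17 in PC3 and -0.53 in DU145. HTR5A, DEPDC4 and TUSC5 were dim in PC3, with control signals of 53.2, 39.0 and 55.2. With normexp they read -0.54, -0.37 and -0.38 in PC3.

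The largest gains in PC3 alone were those of FCN1 (1.29 in PC3 and -0.02 in DU145), MAP4K3 (1.19 and 0.10), OLFM1 (1.12 and 0.15), SLC7A6 (1.10 and 0.30), ELF2 (1.06 and 0.30), BCOR (1.03 and 0.48), SYT1 (1.02 and -0.05) and SPRED2 (1.02 and 0.44). SPRED2 restrains signalling from RAS to ERK, and BCOR is a transcriptional corepressor. The control signals of these 8 genes in PC3 lay between 23.4 and 104, so that the gains rest on dim probes. At a second probe SYT1 read 0.23 and BCOR 0.48 in PC3. The second probe of OLFM1 was lower in both lines, at -0.50 in PC3 and -2.12 in DU145. The first probe of OLFM1 read 1.26 with miR-27b in 786O.

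Genes that moved past 0.5 in opposite directions were few. There were 13 lower in DU145 and higher in PC3 (0.0901% of genes tested) and 20 higher in DU145 and lower in PC3 (0.139%). The second kind was led by ACVR1B, an activin receptor (0.91 in DU145 and -0.90 in PC3), and ATF6B, a relative of a transcription factor of endoplasmic reticulum stress (0.84 and -0.72). SAMD9L, an interferon-stimulated gene, was in this group too (0.55 and -0.60). On the 6 other arrays ACVR1B ran from -0.92 to 0.54 and ATF6B from -0.81 to 0.48, so that their values in PC3 lay within that range and those in DU145 above it. SAMD9L ran from -0.31 to 0.34 there and was outside in both lines. With normexp ACVR1B read 0.41 and -0.28, ATF6B 0.58 and -0.49 and SAMD9L 0.21 and -0.56, so that none of them was past 0.5 in both lines.

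The lines differed in interferon-stimulated genes, which interferon receptors switch on through factors that include STAT2 and IRF9. Of 39 listed genes 36 were tested, and 35 of the 36 were lower in PC3 than in DU145, against 47.0% of all genes. In PC3 the median was -0.54, with 19 genes past -0.5 and none past 0.5, and in DU145 the median was 0.20, with none past -0.5 and 3 past 0.5 (SAMD9L, DDX58 and IFIH1). The medians of all genes tested were 0.02 and 0.01. Of all genes, 4.76% were past -0.5 and 6.09% past 0.5 in PC3, and 2.68% and 2.74% in DU145. Genes of a list are not replicates, and 1 array for each line gives no test of this difference.

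Antiviral effectors were among the larger losses in PC3. The signal of RSAD2, viperin, went in PC3 from 4274 down to 1865 (-1.20) but in DU145 from 80.7 up to 110 (0.45). For OASL the change in PC3 was from 9892 down to 4732 (-1.06), and in DU145 from 4884 up to 5460 (0.16). MX1 in PC3 went from 38124 down to 26267 (-0.54), and in DU145 from 2661 up to 3412 (0.36). These 3 genes were thus brighter in PC3 before the knock-down, and RSAD2 and MX1, but not OASL, still were after it. The sensors of viral RNA DDX58 (-0.28 in PC3 and 0.51 in DU145) and IFIH1 (-0.04 and 0.50) were not past -0.5 in PC3. XAF1 (-1.12 in PC3 and 0.32 in DU145), CMPK2 (-0.93 and 0.48), MX2 (-0.90 and 0.31), ISG20 (-0.94 and -0.13), IFI35 (-0.95 and -0.21), USP18 (-0.82 and -0.10) and ISG15 (-0.75 and 0.05) were also lower in PC3. Of the factors that drive these genes, STAT2 read -0.57 in PC3 and 0.07 in DU145, and IRF9 0.16 and 0.32. IFIT5 (-0.01 and -0.05) was the single gene that was not lower in PC3.

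Control cells of the lines differed in the level of these genes, and 34 of the 36 had the higher control signal in PC3. At the same probes the median control signal of the 36 genes was 477 in DU145 and 3699.7 in PC3, while that of all genes tested was 416 and 523. With miR-143, the other transfection of both lines on the slide, the list had a median of -0.26 in DU145 and -0.10 in PC3, so that there the order of the lines was the other way round. On the remaining 4 arrays of the design its median ran from -0.02 to 0.19. Background correction by normexp gave medians of 0.17 in DU145 and -0.47 in PC3, and subtraction of the other arrays 0.20 and -0.53. How far the starting level bears on the difference was not tested.

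**Figure D3:**
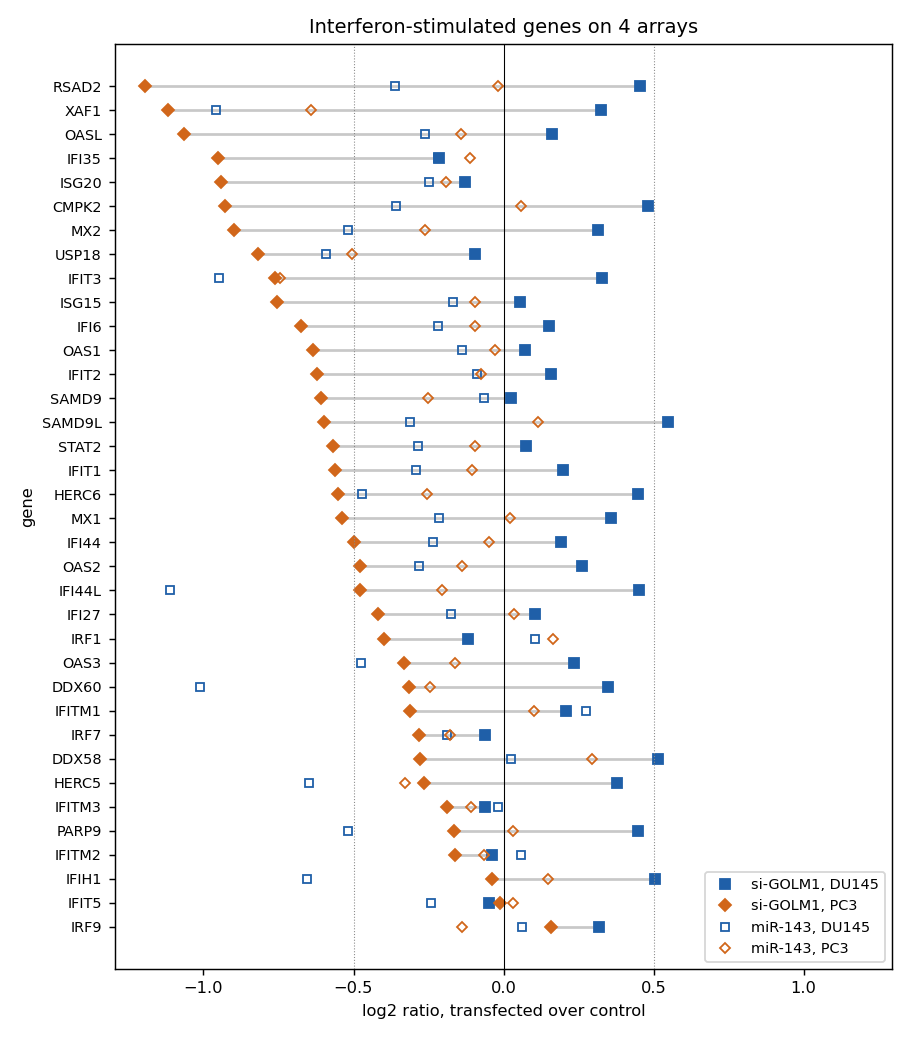
The x axis gives the log2 ratio of transfected over control cells for each of 36 interferon-stimulated genes, ordered by the value in PC3 with si-GOLM1. Filled squares (DU145) and diamonds (PC3) are the si-GOLM1 arrays, open ones the miR-143 arrays, and grey bars join the si-GOLM1 values of a gene; each point is 1 array. In 35 genes the filled diamond lies to the left of the filled square.

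Promoters of these genes are shown because many of them hold the letters of the interferon-stimulated response element, which the ratios did not choose. The letters searched were GAAANNGAAA on both strands, and the reverse strand reads TTTCNNTTTC. Windows ran from 250 bases before to 50 after each start, from RefSeq on GRCh38.p14, and a gene could have several. The letters were in a window of 19 of the 29 listed genes that have one, against 426 of 11147 tested genes (3.82%) and 1255 of all 35116 windows (3.57%). Among genes past -0.5 in PC3 they were in 8 of 15, and among the others in 11 of 14. Sites of 30 bases before the start follow, 5′ to 3′ on the gene's strand, with the matched letters in capitals.
RSAD2, chr2:6877622-6877651: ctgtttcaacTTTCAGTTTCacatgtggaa
ISG20, chr15:88638937-88638966: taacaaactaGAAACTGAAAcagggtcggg
ISG15, chr1:1013380-1013409: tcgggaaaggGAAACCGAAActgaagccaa
IFI6, chr1:27672288-27672317: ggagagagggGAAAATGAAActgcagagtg
IFIT1, chr10:89392497-89392526: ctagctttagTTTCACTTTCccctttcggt
IFIT5, chr10:89414513-89414542: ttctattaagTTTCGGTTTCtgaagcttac
IFIH1, chr2:162318686-162318715: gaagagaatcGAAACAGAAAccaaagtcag
The first 5 belong to genes lower in PC3 past 0.5, and the last 2 to genes at -0.01 and -0.04 there. IFI6 and IFIH1 lie on the reverse strand of the genome, the others on the forward strand.

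Some inflammatory cytokines and stress genes were past -0.5 in PC3 as well. Of 20 tested cytokines and NF-kB targets, 8 were past -0.5 in PC3 and 1 in DU145 (4.76% and 2.68% of all genes), and the medians were -0.11 and 0.02. CCL5 read -1.03 in PC3 and 0.18 in DU145, IL11 -0.95 and 0.01, CXCL2 -0.81 and 0.07, IL6 -0.80 and -0.03, and CXCL1 -0.73 and -0.11. CXCL3 was past -0.5 in both lines (-0.74 and -0.52). CCL20 (-0.92 in PC3 and 0.87 in DU145) was not well above background in all channels. With miR-143 in PC3 this list had a median of 0.35.

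The stress response driven by ATF4, which restores amino acids, was read from 23 genes, of which 7 were past -0.5 in PC3 and none in DU145 (4.76% and 2.68% of all genes), with medians of -0.31 and 0.02. AARS, alanyl-tRNA synthetase, read -0.87 and -0.35, DDIT4, an inhibitor of mTOR signalling, -0.82 and -0.11, ATF3 -0.78 and 0.11, and DDIT3, known as CHOP, -0.68 and 0.23. The 19 chaperones and XBP1 targets of the endoplasmic reticulum had medians of -0.24 (PC3) and 0.04 (DU145), with HERPUD1 (-0.89 and 0.02), DNAJB9 (-0.86 and -0.27) and CANX (-0.56 and -0.22) past -0.5 in PC3. These are 3 of the 19, against 4.76% of all genes. Subtraction of the other arrays moved the medians of the chaperone list to -0.07 (PC3) and 0.14 (DU145), and those of the ATF4 list to -0.28 and 0.05. In DU145 SDF2L1 was past it (-0.62, and -0.32 in PC3).

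Apart from GOLM1, no listed golgin or coat gene was past 0.5 in DU145, while some were higher past 0.5 in PC3. Of 23 tested golgins and structural proteins GOLM1 was the 1 gene past -0.5, and the list medians were 0.10 in DU145 and 0.07 in PC3. GOLT1B (0.36 in DU145 and 0.64 in PC3), CASC4 and ACBD3 (0.23 and 0.60) were past 0.5 in PC3, where 6.09% of all genes were higher past 0.5. Of 25 glycosylation enzymes MAN1A1, a mannosidase that trims N-glycans, was higher in both lines (0.79 and 0.52, others -0.19 to 0.19), and ST3GAL4, a sialyltransferase, was lower in DU145 (-0.86 and -0.35). Of 35 coat and sorting genes none was past 0.5 in DU145 and 4 were in PC3 (PCSK5, SEC24B, SEC23A and SORT1, 0.53 to 0.66), and the rest, FURIN among them (-0.05 in DU145 and -0.36 in PC3), lay within 0.5 of 0. The medians of these 35 genes were 0.07 in DU145 and 0.21 in PC3, and 0.06 and 0.13 minus the other arrays. Of the 35, 8 were lower in PC3 than in DU145, against 47.0% of all genes. Lysosomal genes had medians of -0.03 and -0.04.

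The medians of lists of invasion and growth lay within 0.15 of 0, while some members were past 0.5 in PC3. Epithelial genes had medians of -0.14 in DU145 and -0.06 in PC3, with KRT7 the 1 gene of 18 past -0.5 in both, and mesenchymal genes -0.08 and -0.02, with none of 12 past 0.5 in both. Metalloproteinases and their inhibitors had medians of 0.04 and 0.07, integrins and laminins 0.07 and 0.14, and receptor tyrosine kinases with ligands of the EGF receptor -0.07 and 0.07. Of the matrix genes LAMA5 (0.66), LAMC1 (0.62), ITGA2 (0.54), PLAU (0.52) and LAMB1 (0.50) were past 0.5 in PC3, and apart from KRT7 these lists had no member past 0.5 in both lines. In PC3, 4 of 17 integrins and laminins were higher past 0.5, against 6.09% of all genes, and none was past -0.5. Of the 17 receptor tyrosine kinases and ligands 2 were higher past 0.5 there, up to 0.82, and none was past -0.5. Lower in PC3 than in DU145 were 3 and 4 genes of these lists, against 47.0% of all genes. Of 16 ERK feedback genes, 4 were higher past 0.5 in PC3: SPRED2, ETV5 (0.59), DUSP5 (0.55) and SPRED1 (0.51). There 2 were lower, FOS (-0.59) and EGR1 (-0.59). Of all genes, 6.09% were higher and 4.76% lower past 0.5 in PC3. The medians of the 16 genes were 0.08 in DU145 and 0.10 in PC3.

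G2 and mitosis genes had a median of 0.07 in DU145 and 0.20 in PC3, and 0.19 and 0.30 minus the other arrays. KIF11, TTK, TOP2A and CENPF read 0.52 to 0.58 in PC3, which is 4 of 30 genes, against 6.09% of all genes. Of the 30, 4 were lower in PC3 than in DU145, against 47.0% of all genes. S-phase genes had medians of 0.01 and 0.05. RRM2 and CCNE2, 2 of 30 S-phase genes, were higher past 0.5 in both lines, against 1.01% of all genes. Of 18 p53 targets BAX was past -0.5 in both lines, and CDKN1A, the cell cycle inhibitor p21, read 0.15 in DU145 and -0.51 in PC3. The medians of these 18 genes were -0.02 in DU145 and -0.08 in PC3. In PC3, 3 of them were past -0.5 and 2 past 0.5 (4.76% and 6.09% of all genes), the highest at 1.41. DU145 and PC3 are known to lack normal p53. Lipid synthesis genes had medians of 0.04 and 0.02, and the median of glycolysis and hypoxia genes was -0.05 in PC3 and nearer to 0 in DU145.

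**Figure D4:**
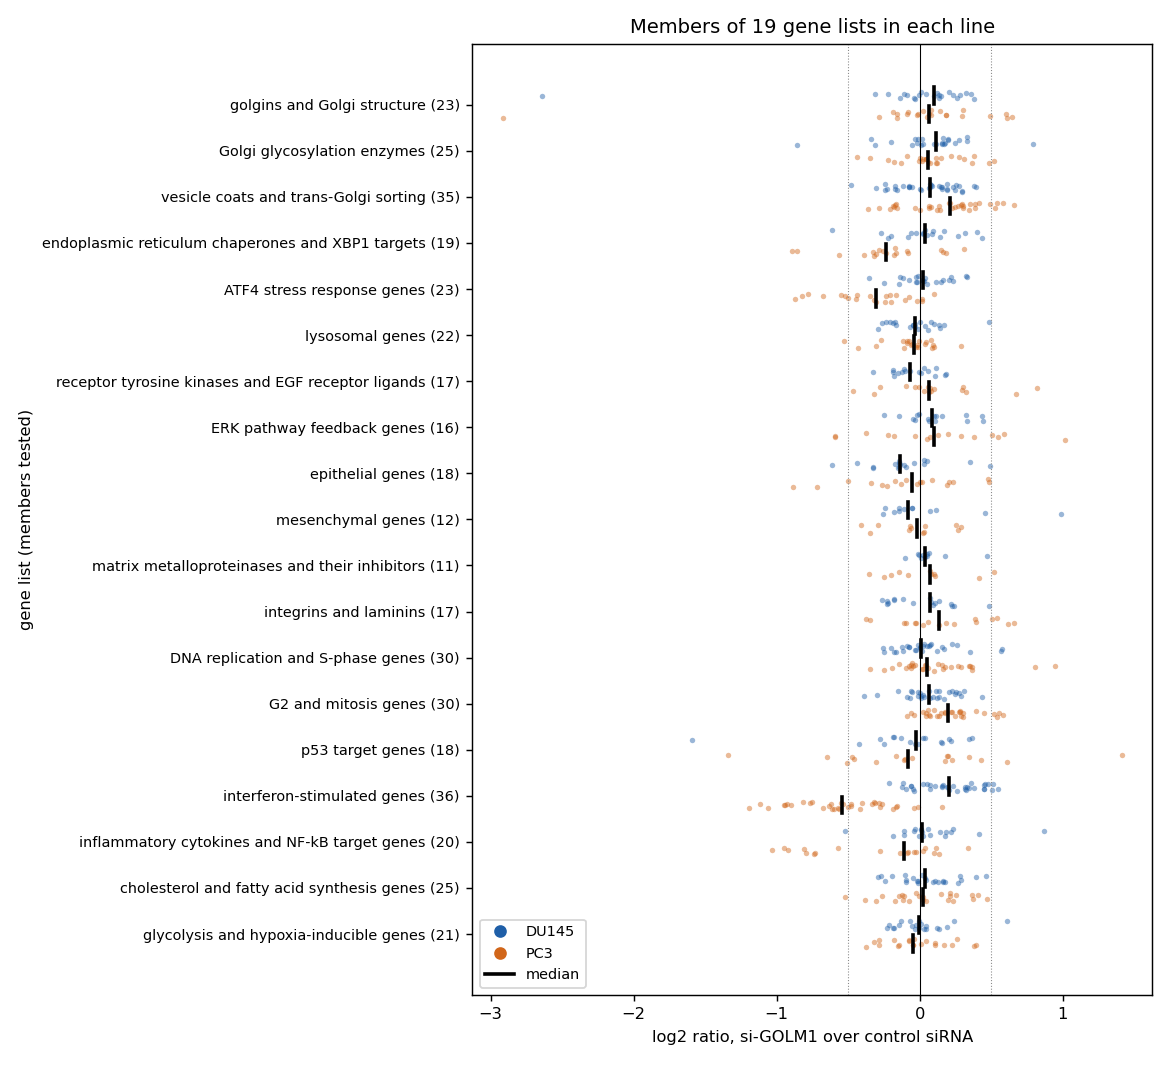
For 19 gene lists, with the number of tested members in brackets, the x axis gives the log2 ratio of si-GOLM1 over control siRNA; blue points are members in DU145, orange points in PC3 (spread vertically for legibility), black bars the medians and dotted lines -0.5 and 0.5. Interferon-stimulated genes have medians of 0.20 and -0.54, and 14 of the 19 lists have both medians within 0.15 of 0.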

How the data were processed

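Two-colour arrays of 1 design were read as deposited. The authors deposited the output of Agilent Feature Extraction 10.7.3.1, in which intensity values per spot and dye had been corrected for background and dye, and a log10 ratio of Cy5 over Cy3 with its error, a score of the software's technical model. The authors' series matrix of log10 values differed from it by at most 0 over 62976 features. The log10 ratio was multiplied to log2.

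Control spots and outlier-flagged spots (612 in DU145 and 525 in PC3 of 58717) were left out, no spot was saturated, and spots of a probe were averaged. Of 50599 probes, 31448 were matched to RefSeq genes by accession, symbol or synonym. A probe was tested where at least 0.5 of its spots were well above background in 1 dye of each array, which 25009 were. Depth is signal over background here: 53.2% to 60.5% of spots were well above it in each channel. Genes were called by size. The members and lists were chosen with earlier results of these data known. Some listed genes are not reported here, and the values of their lists were computed without them. Named are GOLM1 and CASC4, the 12 largest coding genes in each direction in both lines, the 8 in 1 line, the 4 in opposite directions, and the 5 largest unnamed or non-coding probes, all well above background in all 4 channels, and list members past 0.5 in both lines and 1.0 in 1. Limma 3.58.1 in R 4.3.3 was tested on simulated data, and 8 probes lacked a value on another array and were fitted without it. The rest was computed in Python 3.11.15. Alternatives changed the background correction, centring, source, dye correction by the other arrays, filter, probe rule, limits and limma samples.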

Additional observations from a re-analysis of the deposited data

Results flagged for a closer look

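Of the named genes with opposite signs in the lines, each had 1 array per line, so the difference between the lines was not tested. ACVR1B read 0.91 in DU145 and -0.90 in PC3, ATF6B 0.84 and -0.72, SAMD9L 0.55 and -0.60, and FAM13A 0.54 and -0.67. In the other order, HTR6 read -0.58 in DU145 and 0.67 in PC3, SLC30A4 -0.55 and 0.53, and DTWD2 -0.52 and 0.82. Each rests on 1 tested probe. HTR6 (-1.24 to 0.71 on the 6 other arrays) and SLC30A4 (-1.13 to 1.05) lay within the range of those arrays in both lines, and ACVR1B and ATF6B in PC3. SAMD9L, FAM13A and DTWD2 lay outside it in both lines. With normexp none of these 7 genes was past 0.5 in both lines, the nearest being ATF6B at 0.58 and -0.49.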

How the results depend on the processing

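With 1 array per line no replicate could be left out. No paired analysis was possible because each line has 1 array and the labels give no replicate numbers. Main counts were 150 genes lower and 145 higher in both lines, 24 lower and 29 higher in DU145 alone, 62 and 61 in PC3 alone, and 58 and 24 probes by limma. In the same order, normexp with loess gave 46, 24, 4, 0, 17, 2, 590 and 785, and no background correction with loess 70, 38, 5, 0, 20 and 3. Probes well above background in all 4 channels gave 96 higher in both, 7 lower and 0 higher in DU145 alone, 12 higher in PC3 alone, and 31 and 13 by limma. Without the filter the counts were 349, 357, 191, 168, 432 and 325. Past 1.0 in both lines were 36 and 9, and past 0.5 on average 347 and 435. Limits added after seeing the data left 76 and 87 in both lines and 17 higher in DU145 alone outside the 6 other arrays, and 8 and 1 where every probe had to agree. Limma gave 24 and 5 without the CXCL10 arrays, and 0 and 0 both from the 2 arrays alone and against the other treatments (3833 and 3533 at an unadjusted p under 0.05). GOLM1 in PC3 moved to -2.17 with normexp, where DU145 gave -2.42, and to -2.42 with no background correction, where DU145 gave -2.52. It moved to -3.53 over both probes and to -2.34 minus the other arrays, where DU145 gave -2.07. GIPR in DU145 turned to -0.11 minus the other arrays. Of 174 values of other named genes, 82 moved by more than the technical error with normexp, 65 with no background correction, 52 minus the other arrays and 23 over all probes. With normexp RNF20 in PC3 went from -2.22 to -1.09, MAGEE1 in DU145 from -1.25 to -0.68, and SNRK to 0.38 and 0.44. The cause was not tested.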

Other observations

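Families of short or unspliced transcripts, picked after their values were seen, had medians below 0 in PC3. Of 223 tested small nucleolar RNAs, which guide the modification of ribosomal RNA, 49 were past -0.5 in PC3 and 6 past 0.5 (4.76% and 6.09% of all genes), with a median of -0.28, and in DU145 the median was -0.04 with 5 past -0.5. With miR-143 in PC3 their median was 0.33. Of 59 replication-dependent histone genes 10 were past -0.5 in PC3 and none in DU145, with medians of -0.33 and -0.02. The 92 cytosolic ribosomal protein genes had medians of -0.02 in PC3 and 0.00 in DU145.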
